A study of Homo sapiens with 20 samples.

Results

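The baseline pseudouridine landscape of mitochondrial RNA was read from 4 control libraries of K562, an established human leukaemia cell line. Members were chosen by label: every CMC-treated library of wildtype cells carrying a non-targeting sgRNA that had a deposited profile, which gave 4 of 20 samples in the series and 4 of the 14 with a profile. CMC is a carbodiimide that forms a lasting adduct with pseudouridine, and the adduct causes errors or stops when the RNA is copied into cDNA. RNA from isolated mitochondria was treated with 0.5 M CMC. The other CMC groups, used below only to place the control values, were NME6 knockout cells (4 libraries), RPUSD4 knockdown cells (3) and rescue cells, an NME6 knockout given a WT-NME6 cDNA (3). No group was checked for its perturbation, because transcripts of nuclear genes were not analysed here. Of the 6 untreated samples, 2 are control samples, and none has a profile of its own. The labels do not state whether the 4 control libraries came from separate cultures, so the spread between them, and every p-value below, may be technical.

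The mitochondrial genome is copied from both strands into long transcripts that are cut into 2 ribosomal RNAs, 13 mRNAs and 22 tRNAs, and the tRNAs mark many of the cuts. Pseudouridine is an isomer of uridine made on the RNA by synthases that are encoded in the nucleus and imported. RPUSD4 is known to act on the 16S rRNA of the large ribosomal subunit, PUS1 on the anticodon stem of several mitochondrial tRNAs, and TRUB2 and RPUSD3 have been reported to act on the mRNAs of cytochrome c oxidase subunits. The synthases themselves were not measured here.

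Each library's profile gave 1 signed difference per position, CMC minus untreated, called its level here and read as percentage points. It covered 16570 positions, of which 15358 lay in the 37 genes and 1212 outside them (1123 in the control region, the non-coding stretch that holds the promoters, and 89 between genes). Positions were read as GRCh38 coordinates of chromosome MT. Read depth is not listed, so no counting interval can be given. An exact 0 may be a position with no difference or one with no reads. A high value may rest on very few reads. The files hold no base letters, so a high position need not be a uridine. They list no strand either, so a level at a gene may come from RNA of the opposite strand.

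Replicate 1 stood apart from the other 3 control libraries. It listed 58.9% of positions at 0, against 32.4%, 34.2% and 33.8% in replicates 2, 3 and 4. Its mean level over all positions was 0.0851 points, against 0.156, 0.159 and 0.159. It also had more positions below 0 (794 against 317, 364 and 363) and fewer above 1 point (141 against 312, 319 and 333), but more above 5 points (17 against 9 in each of the others). The cause was not tested. Results are therefore given for all 4 libraries and, where they differ, for replicates 2 to 4.

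Across the genome 16 positions were above 1 point in all 4 libraries, 0.0966% of those listed. A further 102 were above it in 3 libraries, 151 in 2 and 433 in 1, and 15868 were above it in none. The 16 sites lay in 10 genes and formed 13 runs of neighbouring bases. There were 12 in mRNAs, 3 in tRNAs and 1 in 16S rRNA, and none in 12S rRNA or outside genes. All 16 were in heavy-strand genes, which make up 28 of the 37 genes and 14282 positions, and none was in the 9 light-strand genes (ND6 and 8 tRNAs, 1073 positions). The sites were selected on these levels, so their height is a description and was not tested. They carried a small part of the total: 5.32%, 2.68%, 2.57% and 2.59% of all positive level in replicates 1 to 4.

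The single 16S rRNA site was position 3067, base 1397 of RNR2, which coincides with the site RPUSD4 is known to modify. Its level was 14.1, 14.9, 13.8 and 15.8 points in replicates 1 to 4, or 14.7 ± 0.911 (SD, n = 4). The libraries lay close together, and replicate 1 fell inside the range of the others although its mean level over the genome was the lowest. The next highest 16S positions were far lower: 1975 (base 305) reached 2.33 points and 1791 (base 121) reached 1.77 points in their highest library.

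The highest site of all was in TRNL1, the gene of the tRNA-Leu(UUR) that reads UUA and UUG codons. Position 3258, base 29 of this gene, had 15.3, 24.8, 19.7 and 19.0 points, or 19.7 ± 3.94 (SD, n = 4). Replicate 1 was lowest and replicate 2 highest. Both other tRNA sites were uneven. Position 10048, base 58 of the tRNA-Gly gene TRNG, had 12.1, 1.87, 3.83 and 4.10 points. Position 7523, base 6 of the tRNA-Asp gene TRND, had 7.89, 1.71, 2.14 and 1.35 points. At both, replicate 1 was far above the others, and without it the means were 3.27 ± 1.22 and 1.73 ± 0.396 points (SD, n = 3) in place of 5.48 ± 4.54 and 3.27 ± 3.10 (SD, n = 4).

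Among mRNAs, COX1, which encodes the catalytic subunit of cytochrome c oxidase, held 5 of the 12 sites in 2 runs. Position 6293, base 390 of the gene, had 10.8, 7.65, 9.56 and 8.01 points, or 9.001 ± 1.45 (SD, n = 4). The 2 bases just before it, 6291 and 6292, were also sites, with means of 1.27 ± 0.206 and 1.66 ± 0.329 points. The second run, 6762 and 6763 (bases 859 and 860), was even among replicates 2 to 4 and lower in replicate 1. Position 6762 had 1.32, 1.81, 1.81 and 1.86 points. Position 6763 had 1.46, 1.87, 1.93 and 1.91 points. COX3, another core subunit of the same enzyme, had 1 site, position 9478 (base 272), with 2.62, 2.58, 2.68 and 3.14 points. It was the only site besides the 3 highest whose 4 libraries were all above 2 points.

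The other 6 mRNA sites lay in genes of complex I, the NADH dehydrogenase, and in ATP6, a subunit of the ATP synthase. ND2 had position 4586 (base 117), with 4.35, 2.24, 1.66 and 1.21 points, and position 5247 (base 778), with 1.71, 2.14, 2.30 and 2.27 points. The first was highest in replicate 1, the second lowest there. ND5 position 14075 (base 1739) had 1.32, 1.85, 2.14 and 2.43 points. In ND4, position 10880 (base 121) had 1.19, 1.40, 1.60 and 2.19 points and position 11383 (base 624) had 1.21, 1.53, 1.20 and 1.20 points. ATP6 position 8756 (base 230) had 1.24, 1.39, 1.31 and 1.10 points. Replicate 1 was the lowest of the 4 at 6 of 16 sites and the highest at 5. A site had to be above 1 point in replicate 1 too, so positions where that library was low had been left out. The lowest library of a site just inside the threshold was 1.19 at 10880, 1.10 at 6291 and 1.10 at 8756. Just outside it were 15563 in CYTB, the cytochrome b of complex III (0.970), 2664 in RNR2 (0.955) and 3821 in ND1, a complex I subunit (0.954).

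**Figure D1:**
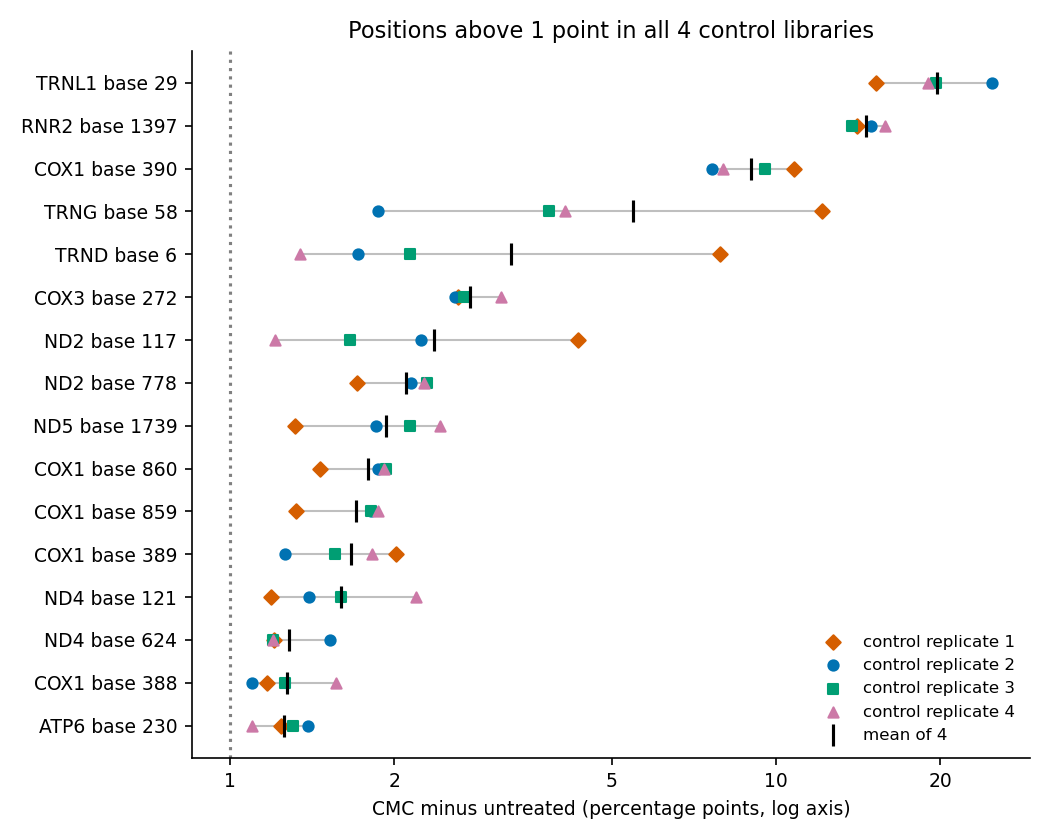
Level (CMC minus untreated, percentage points, log axis) of the 16 positions above 1 point in all 4 control libraries, by gene and base within the gene; symbols are libraries, the black tick is their mean, the grey line their range and the dotted line 1 point. TRNL1 base 29, RNR2 base 1397 and COX1 base 390 stand above the rest in replicates 2 to 4; in replicate 1 TRNG base 58 (12.1) lies above COX1 base 390 (10.8).

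Around the 3 highest sites the signal was narrow, but 2 of them had a shoulder on the 5′ side. The summed level of the 5 bases before the RNR2 site was 2.50 ± 0.570 points (SD, n = 4), against 0.297 ± 0.173 for the 5 bases after it. Before the COX1 site it was 4.06 ± 0.562 points and after it 0.420 ± 0.105. The side before was higher in 4 of 4 libraries at both, with differences of 1.57 to 3.13 points at RNR2 and 3.10 to 4.59 at COX1. An exact two-sided sign-flip test over 4 libraries cannot go below p = 0.125, so none is given. At the TRNL1 site the sides were mixed, with 0.858 ± 0.749 points before and 0.627 ± 0.332 after.

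**Figure D2:**
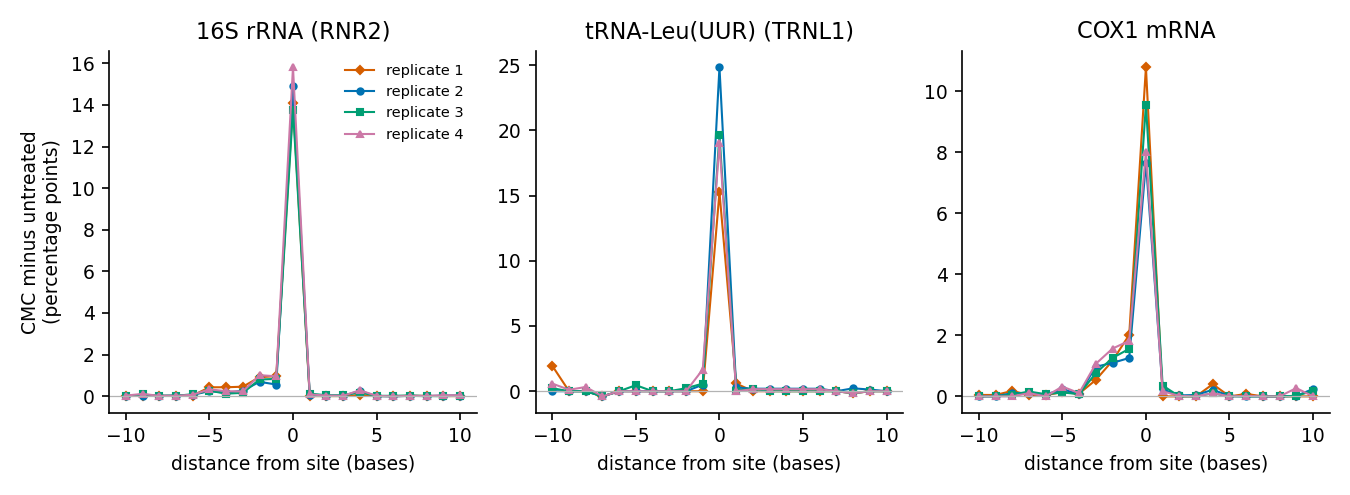
Level (percentage points) at each base from 10 before to 10 after the highest site of 16S rRNA, TRNL1 and COX1, in the 4 control libraries (lines); the vertical scales differ. The site itself stands out in every library, and the RNR2 and COX1 sites have low shoulders on the left, 5′ side.

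Only 2 positions reported as pseudouridines in tRNAs, and not among the 16, were looked up. Position 616, base 40 of the tRNA-Phe gene TRNF, was listed at 0 in all 4 libraries. Position 4447, base 46 of the tRNA-Met gene TRNM, was listed at 0, 0.0855, 0 and 0.146 points. TRNM as a whole had 98.5% of its positions at 0 in replicate 1 and 48.5% to 51.5% in replicates 2 to 4. TRNF as a whole was listed at 0 at 100% of its positions in replicates 2 to 4, so the 0 at 616 does not show that this base lacks the modification.

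The zeros differed strongly between RNA classes and kept 1 order of classes in replicates 2 to 4, while in replicate 1 tRNAs moved above positions outside genes. In 16S rRNA 29.2%, 17.4%, 19.2% and 19.9% of the 1559 positions were listed at 0 in replicates 1 to 4. In the 11341 mRNA positions the shares were 53.5%, 23.7%, 25.5% and 24.8%, and in the 1504 tRNA positions 92.7%, 50.1%, 52.4% and 54.1%. Outside genes they were 74.1%, 60.3%, 60.4% and 58.8%. The 12S rRNA of the small ribosomal subunit was almost empty: 99.0%, 97.3%, 99.2% and 98.6% of its 954 positions were at 0, and 915 of them (95.9%) in all 4 libraries. Replicate 1 was farthest above the others in tRNAs and mRNAs.

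In replicates 2 to 4 the genes with the most zeros were the first 3 in genome order, TRNF, RNR1 (12S rRNA) and TRNV, the last with 78.3% to 85.5% of its positions at 0. Some later tRNA genes came near, such as TRNN with up to 75.3%. In replicate 1 many tRNA genes had more zeros than TRNV (85.5%), and TRNQ and TRNE were at 0 throughout (100%). In RNR2, the next gene, the first 312 bases had 28.5% to 42.6% of positions at 0, and bases 625 to 936 had 7.05% to 21.5%. In the other groups 12S rRNA was also mostly at 0, with shares of 97.9% to 99.7% in NME6 knockout, 99.6% to 99.8% in RPUSD4 knockdown and 85.7% to 96.2% in rescue libraries. The library kit named in the labels removes ribosomal RNA, with 12S rRNA among its targets as general background, and its part in these zeros was not tested. Levels of 12S rRNA therefore rest on a few positions. Its highest, 1335 (base 688), had 22.2, 0, 0 and 8.45 points.

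The mean level of a class over all its positions, zeros included, was low everywhere. It was 0.129, 0.183, 0.197 and 0.189 points in tRNAs for replicates 1 to 4. In mRNAs it was 0.0833, 0.158, 0.163 and 0.163, and in 16S rRNA 0.0861, 0.161, 0.165 and 0.165. The tRNA mean was above the mRNA mean in 4 of 4 libraries, also without the TRNL1 site (0.119, 0.167, 0.184 and 0.176 points). The 16S mean was slightly above the mRNA mean in 4 of 4 libraries, but not without position 3067, where it was 0.0771, 0.152, 0.156 and 0.155 points. These differences between classes were not tested. In 12S rRNA the mean was 0.0767, 0.0525, 0.0186 and 0.0271 points. Outside genes it was 0.0535, 0.176, 0.176 and 0.183 points.

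Replicate 1 behaved differently by class. In mRNAs and 16S rRNA its zeros were more and its other values lower: over positions not at 0 its mean was 0.179 points in mRNAs, against 0.208 to 0.219 in the others, and 0.122 in 16S rRNA, against 0.195 to 0.206. In tRNAs the values it did list were higher, with a mean of 1.76 points over positions not at 0, against 0.368, 0.413 and 0.411. Of these tRNA positions 42.7% were above 1 point in replicate 1, against 6.27%, 8.52% and 9.42%. The highest was TRNF position 588 (base 12), with 33.33 points in replicate 1 and 0 in replicates 2 to 4. The read numbers behind these tRNA values are not listed, and a value such as 33.33 can come from very few reads.

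**Figure D3:**
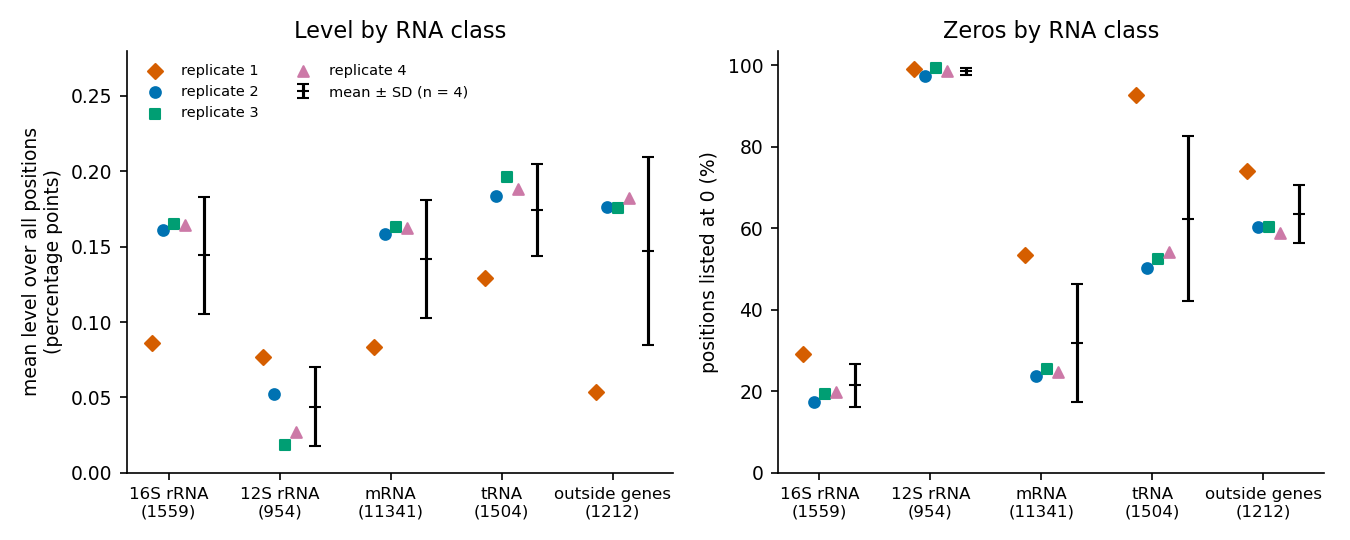
Mean level over all positions (left, percentage points, zeros included) and share of positions listed at 0 (right, %) by RNA class, with the number of positions in parentheses; symbols are the 4 control libraries and the black mark is mean ± SD (n = 4). Replicates 2 to 4 lie close together in every class but 12S rRNA, and replicate 1 is lower in level and higher in zeros outside 12S rRNA.

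Gene by gene, mean levels covered a narrower range in mRNAs than in tRNAs. In replicates 2 to 4 the mean level of the 13 mRNAs ran from 0.134 points in COX2 to 0.178 in COX1, with a median of 0.159. COX2 was the lowest and COX1 the highest in each of these libraries, while in replicate 1 COX2 was lowest (0.0637) and ND6 highest (0.108). Replicate 1 had the lowest of the 4 means in 13 of 13 mRNAs and in 15 of 22 tRNAs. ND6, a light-strand gene, had the fewest zeros of the mRNA genes in each library, from 38.1% in replicate 1 to 13.3% in replicate 4. Without a strand in the profiles, RNA of the opposite strand may contribute to its levels. ND3 or COX3 had the most, with up to 38.2% in replicates 2 to 4.

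Among tRNAs the mean over replicates 2 to 4 ran from 0 in TRNF to 0.432 points in TRNL1, with a median of 0.178. TRNR, the tRNA-Arg gene, had the fewest zeros in all 4 libraries (72.3%, 13.8%, 12.3% and 15.4%). In replicate 1 the median tRNA had 95.9% of its positions at 0, so a tRNA mean there rests on a few bases. Of the 22 tRNAs, 3 had a site above 1 point in all 4 libraries and 7 had one in replicates 2 to 4, and of the 13 much longer mRNAs 6 and 12 did. Per position the order was the other way: sites above 1 point in all 4 libraries were 0.199% of tRNA and 0.106% of mRNA positions, and those in replicates 2 to 4 were 0.864% and 0.538%. By strand of the gene, the light-strand genes had 0.0747, 0.158, 0.175 and 0.161 points and the heavy-strand genes 0.0886, 0.154, 0.156 and 0.157. These are levels at the positions of the genes, and the strand of the RNA behind them is not listed.

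**Figure D4:**
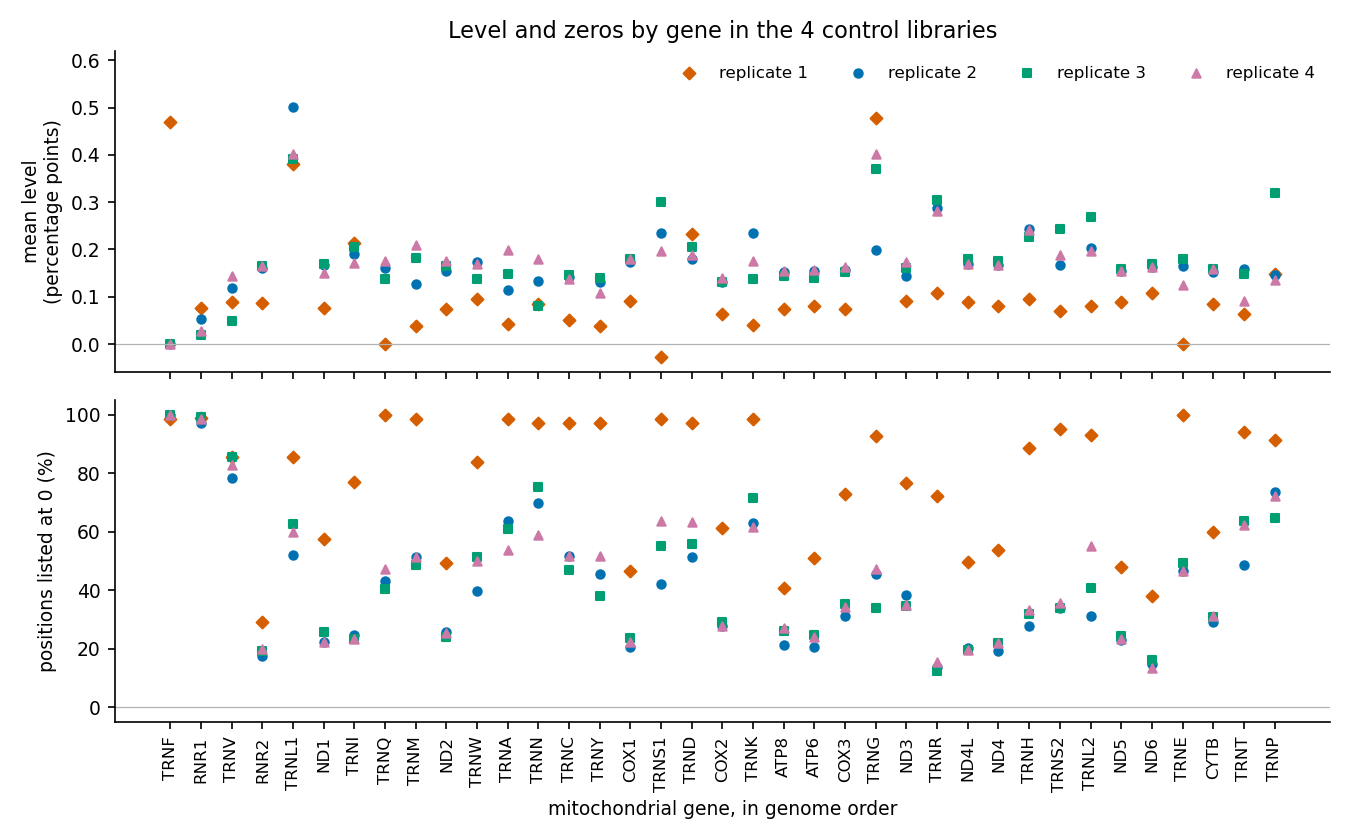
Mean level (top, percentage points) and share of positions listed at 0 (bottom, %) for each of the 37 mitochondrial genes in genome order; symbols are the 4 control libraries. The mRNAs of replicates 2 to 4 form a narrow band, tRNAs scatter, TRNF and RNR1 are almost wholly at 0, and replicate 1 has the highest share of zeros in 13 of 13 mRNAs and 20 of 22 tRNAs.

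Without replicate 1 the list of sites grew from 16 to 105 positions in 20 genes and outside them: 61 in mRNAs, 23 in 16S rRNA, 13 in tRNAs and 8 outside genes. At the 89 added positions replicate 1 was at 0 in 12, below 0 in 7 and between 0 and 1 point in 70. At the 22 added positions of 16S rRNA replicate 1 was always above 0, with a median of 0.489 points against 1.21 in the others. Added positions are by definition at or under 1 point in replicate 1 and above it in the others. Replicate 1 is therefore the lowest at each, and the gap between the medians is partly built in. The highest added positions inside genes were COX3 9795 (0.589, 2.70, 3.27 and 3.10 points) and TRND 7545 (0, 2.85, 1.65 and 2.64 points), followed by ND4 11827 (0.328, 1.67, 2.27 and 2.37 points). TRNR 10409 was the evenest of these in replicates 2 to 4, with 0.249, 2.03, 2.09 and 2.07 points. These 105 were picked on 3 libraries after the fourth was seen to differ, so the count is a description.

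In the control region replicate 1 took the opposite sign. From 305 to 310, 6 neighbouring positions were above 1 point in replicates 2 to 4, and 5 of them were below 0 in replicate 1. Position 308 had -7.56 points in replicate 1 and 13.0, 12.7 and 13.4 in the others. Position 307 had -9.44 in replicate 1, the lowest value of that library, and 4.54, 4.16 and 6.25 in the others. This stretch lies at a cytosine run of the control region that is known to vary in length between mitochondrial genomes, and its part in the levels was not tested.

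**Figure D5:**
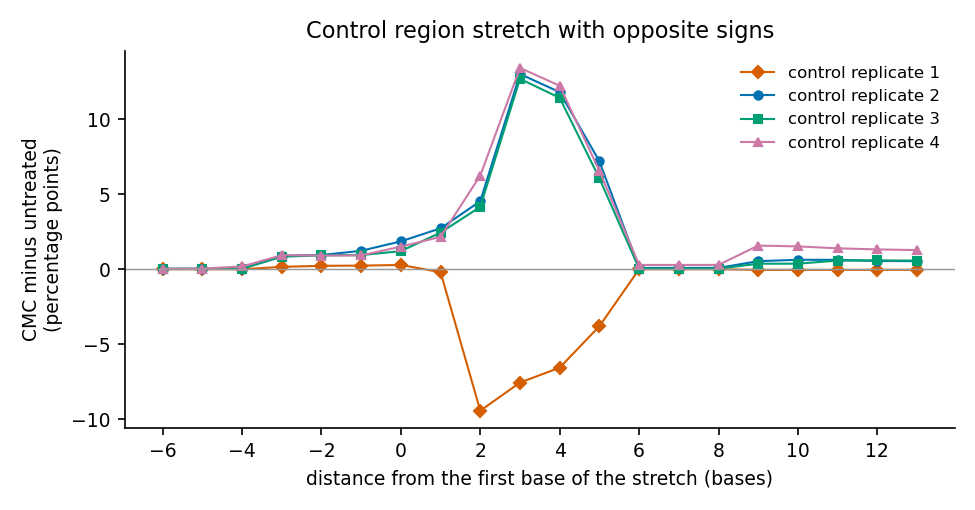
Level (percentage points) by distance in bases from the first of 6 neighbouring control region positions above 1 point in replicates 2 to 4; lines are the 4 control libraries. Replicates 2 to 4 reach 12.7 to 13.4 points at distance 3, where replicate 1 is at -7.56.

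Replicates 2, 3 and 4 resembled each other more than any resembled replicate 1. Across all 16570 positions Pearson's r was 0.758 to 0.791 among them and 0.233 to 0.281 for pairs with replicate 1. Spearman's rho was 0.654 to 0.670 and 0.429 to 0.439. These describe positions of shared libraries, which are not independent. The 4 control libraries appear to share 1 subtracted untreated profile: in every pair 70 to 127 positions held the same negative value within 1e-09. That part of the error does not show in the spread between replicates.

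Agreement depended on the class. In 16S rRNA r was 0.960 to 0.974 among replicates 2 to 4 and 0.848 to 0.884 with replicate 1, and 0.908 to 0.934 and 0.593 to 0.623 without position 3067. In mRNAs it was 0.791 to 0.797 and 0.531 to 0.570, and in tRNAs 0.857 to 0.884 and 0.348 to 0.375. The tRNA values rested largely on 1 position: without TRNL1 3258 they were 0.601 to 0.614 and 0.107 to 0.186, below those of mRNAs without COX1 6293 (0.770 to 0.777 and 0.468 to 0.495). In 12S rRNA it was at most 0.321 for any pair. Outside genes it was 0.769 to 0.871 among replicates 2 to 4 but -0.642 to -0.557 with replicate 1. Without the 6 positions from 305 to 310 the pairs with replicate 1 gave 0.134 to 0.213, and the others 0.307 to 0.606. The lists of positions above 1 point overlapped in part: among replicates 2 to 4 a pair shared 46.8% to 50.0% of the first list and 43.8% to 48.9% of the second. With replicate 1 the shared positions were 18.4% to 25.5% of its own list and 8.33% to 11.3% of the other.

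Set beside the other groups, 4 of the 16 control sites were above 1 point in all 14 libraries: RNR2 3067, TRNL1 3258, COX1 6293 and COX3 9478. Of the 16 sites, 8 were above 1 point in every NME6 knockout library, 11 in every RPUSD4 knockdown library and 8 in every rescue library. Over all positions, 26, 50 and 43 were above 1 point in every library of these groups, which have 4, 3 and 3 libraries. The 16 sites were chosen for high control values, so lower counts elsewhere are partly built in and are not a result. The groups differ in their zeros too, which covered 42.7% to 68.2% of positions in NME6 knockout, 46.01% to 60.9% in RPUSD4 knockdown and 27.7% to 33.5% in rescue libraries. The part of the zeros in the differences below was not tested.

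Differences were tested with limma over the 149 positions with a mean of 1 point or more over all 14 libraries, with Benjamini-Hochberg adjustment over these positions. Of the 16 sites 15 passed this filter, and ND4 11383 did not. The 3 comparisons share the control libraries, so their values are not independent of each other. The labels list untreated samples for each group. If each group had its own untreated profile subtracted, an error in that profile would shift the whole group. Such a shift would not show in the SE, intervals or p-values below. Against RPUSD4 knockdown 1 of 149 positions (0.671%) passed the threshold of 0.05, and it was site 3067. Control libraries lay at 13.8 to 15.8 points and knockdown libraries at 9.25, 10.2 and 9.30, without overlap. Knockdown minus control was -5.06 points (SE 0.940, limma adjusted p = 0.0298). Without control replicate 1 the difference was -5.24 points (limma adjusted p = 0.0303). The call was lost under 8 of 15 other settings, among them when control replicate 2 (limma adjusted p = 0.0835) or control replicate 4 (0.122) was left out, when RPUSD4 knockdown replicate 1 (0.109) or replicate 3 (0.0577) was, or when only both groups compared were in the fit (0.720).

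The other 14 tested sites did not pass in that comparison. TRNL1 3258 differed by 2.10 points (95% interval -3.42 to 7.62, limma adjusted p = 0.846) and COX1 6293 by -1.88 points (-7.65 to 3.89, limma adjusted p = 0.894). These intervals are wide and do not show equal levels. TRNG 10048 had 0.980, 0 and 0.621 points in the knockdown and differed by -4.95 points (limma adjusted p = 0.499). A site is above 1 point in all 4 control libraries by definition, so knockdown values under 1 had to lie below them. Without control replicate 1 it differed by -2.73 points (limma adjusted p = 0.501). COX3 9478 differed by -0.28 points (-1.45 to 0.90, limma adjusted p = 0.974).

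Against NME6 knockout 0 of 149 positions (0%) passed in limma, and 7 had an unadjusted p under 0.05. About that many of 149 tests would fall there without any difference. The 95% intervals are not adjusted for the number of positions. COX1 6293 had 20.6, 14.9, 14.5 and 14.2 points in the knockout, all above the highest control library (10.8). The difference was 7.05 points (95% interval 1.71 to 12.4, limma adjusted p = 0.703). TRNL1 3258 had 10.5, 15.4, 6.93 and 8.93 points against 15.3 to 24.8 in control, with an overlap of 1 knockout and 1 control library. The difference was -9.25 points (-14.4 to -4.14, limma adjusted p = 0.303), and -10.7 points without control replicate 1 (limma adjusted p = 0.0911). COX1 6762 and 6763 were also higher in each knockout library than in each control library, with differences of 0.51 and 0.53 points (limma adjusted p = 0.768 for both). RNR2 3067 differed by 0.49 points (-1.42 to 2.40, limma adjusted p = 0.988).

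Against rescue cells 4 of 149 positions (2.68%) passed, 3 higher and 1 lower in rescue, and 1 of the 4 was a control site. This was again 3067, which read 22.1, 22.9 and 23.3 points in rescue libraries, all above the control range. Rescue minus control was 8.11 points (SE 0.940, limma adjusted p = 3.8e-04). By their sample numbers the rescue samples were registered apart from the other groups. Differences from rescue cannot be told apart from differences between these sets of samples. COX1 6762 and 6763 lay at 0.400 to 0.475 and 0.431 to 0.549 points in rescue. Sites are above 1 point in every control library by definition, so values under 1 had to lie below all of these. Both positions missed the threshold with all libraries (limma adjusted p = 0.0594 for both) and passed it without control replicate 1 (0.0114 and 0.0135). That library was the lowest control at both and was left out after it was seen to differ, so this pass is partly built in. The differences were then -1.39 and -1.42 points, against -1.27 and -1.31 with it. TRNL1 3258 differed by -0.45 points (-5.97 to 5.07, limma adjusted p = 1).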

How the data were processed

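Control libraries were the 4 CMC libraries labelled as wildtype with a non-targeting sgRNA. The deposited files give 1 signed score for each position in a column headed delta, and state no unit for it. Per the submitters' processing notes, the tools were Trimmomatic, STAR and SAMtools (no versions) and the builds GRCh38 and hg38. The method that called altered reads was not given in the sources used here. Per the labels' protocols, mitochondria were fractionated, RNA was taken up in TRIzol, and stranded total RNA libraries were built. Each library listed positions 2 to 16571, assigned to 37 genes by RefSeq coordinates of GRCh38. Strands of genes came from textbook knowledge, and positions were assigned to genes without regard to strand. A site was a position above 1 point in all 4 libraries.

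Group differences were fitted with limma 3.58.1 in R 4.3.3 (empirical Bayes with a mean-variance trend, two-sided) on the scores as deposited, over all 14 libraries, for positions with a mean of 1 or more. The fit was run on simulated independent normal values with large shifts added. That setting is simpler than these data and does not bear on the calls above. Levels and counts were computed in Python 3.11.15 with pandas 2.3.3 and numpy 2.4.6, and drawn with matplotlib 3.10.9. Named positions were all sites, those next to the threshold, the highest of each class and a few reported pseudouridines. Further positions (the highest of those above 1 point in replicates 2 to 4, and the control region stretch) were chosen after their values were seen. The sites, lists and tests were chosen with earlier results of these data known.

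Replicate numbers are shared between groups in the labels. For NME6 knockout, deviations from the group means correlated between equal numbers at 0.471, 0.286, 0.193 and 0.116, each above 0.1, which by the rule used here counts as pairing, a hint from the data and not from the labels. For number 4 the highest correlation with another number was 0.121. The values printed for this comparison are without the replicate block, which left its count of calls at 0.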

Additional observations from a re-analysis of the deposited data

Results flagged for a closer look

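The 4 control values of 36 measures were each checked for a library far from the other 3 (its gap to the nearest, over the whole range, above Dixon's 95% critical value), which chance alone gives in about 1 of 20. There were 18 such measures, and 17 concerned replicate 1. The measures are not independent, since most follow from 1 library. They also include the 6 control region positions from 305 to 310, which were chosen after their values were seen. The rate of 1 in 20 does not hold for measures chosen in this way.

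Over all positions replicate 1 stood out in its mean level (0.0851 points), its share of positions at 0 (58.9%), its share below 0 (4.79%) and its number of positions above 1 point (141). By class it stood out in the mean level of 16S rRNA (0.0861 points), mRNAs (0.0833) and positions outside genes (0.0535), and in the share at 0 of mRNAs (53.5%), tRNAs (92.7%) and positions outside genes (74.1%). Of the 16 sites, COX1 6762 (1.32 points), COX1 6763 (1.46) and TRND 7523 (7.89) stood out for replicate 1, and ND4 11383 for replicate 2 (1.53). In the control region it stood out at 307 (-9.44 points), 308 (-7.56), 309 (-6.57) and 310 (-3.80). Gene by gene the same held for the mean level of 15 of 37 genes, 14 of them for replicate 1, and for the share at 0 of 21, all for replicate 1.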

How the results depend on the processing

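The count of 16 sites rested on the rule: it was 199 at a threshold of 0.5 points, 4 at 2 points, 118 with 3 of 4 libraries and 184 by the mean, 13 as merged runs, and 18 to 105 with 1 library left out (105 without replicate 1). Over positions not at 0, class means were 3.36 points in 12S rRNA, 0.739 in tRNAs, 0.384 outside genes and 0.206 in mRNAs, and the 16S rRNA mean moved by less than its SD. With 1 control library left out, class means stayed at 0.137 to 0.164 points in 16S rRNA, 0.135 to 0.161 in mRNAs, 0.167 to 0.190 in tRNAs, 0.0327 to 0.0521 in 12S rRNA and 0.135 to 0.178 outside genes. The share at 0 was 33.4% to 42.3% and the mean correlation 0.421 to 0.777. In limma 36, 72 and 103 positions passed for RPUSD4 knockdown, NME6 knockout and rescue with no level filter, a fit that included positions with no spread at all. For RPUSD4 knockdown, 0 passed with a median of 1 or more, with both groups alone, with scaled libraries or with the replicate block, and 0 to 2 with 1 library left out. For rescue 8 passed on the signed log2 scale and 3 to 6 with 1 library left out, and for NME6 knockout 0 in each such fit. With control replicate 1 and NME6 knockout replicate 1 both left out, 7, 0 and 12 passed. With the replicate block 0 passed for NME6 knockout, as without it, and 3 for rescue in place of 4, the position lower in rescue being lost. The numbers did not pair the RPUSD4 knockdown samples (correlations of -0.251, -0.000603 and -0.172) nor the rescue samples (-0.343, 0.0380 and -0.332). The causes were not tested. The rise at 3067 in rescue kept its side of the threshold in all alternatives but scaled libraries (limma adjusted p = 0.151). Depth is unknown, so how it limits each level cannot be given.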
